A study of Mus musculus with 12 samples.

Results

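The comparison described here set 3 libraries of wild-type cytotoxic T lymphocytes kept for 24 h with a small molecule that blocks p110δ, a PI3K catalytic subunit (WT+PI3Kdi) against 3 libraries of untreated wild-type cells (WT). These 6 of the 12 libraries of the series were taken by group and biological replicate as the labels give them, a WT+PI3Kdi library was paired with the WT library of the same replicate number, and all 13283 genes of the deposited table were tested, with no selection by a measured value. CTL are effector CD8+ T cells. They were grown from adult female mice by 48 h of stimulation through CD3 and CD28, followed by culture in IL-2 at 20 ng/mL and IL-12 at 2 ng/mL, and the inhibitor was IC87114 at 10 µM with DMSO as the vehicle. Cells of both WT groups carried a Cre recombinase expressed from a granzyme B promoter (GzmB cre+) without the floxed Foxo1 allele, so the Cre is shared by all 4 groups of the series. Live CD8+ cells were sorted before RNA extraction. The other 6 libraries, from FOXO1-GFPfl/fl GzmB cre+ cells (FOXO1-GFP KO) with and without PI3Kdi, were also gated as GFP-, which leaves out cells that still made the FOXO1-GFP protein. They entered the same statistical fit and are used below only to set the response in WT CTL beside a response measured in other libraries.

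p110δ is the PI3K catalytic subunit that predominates in lymphocytes, where antigen receptors and cytokines such as IL-2 use it to make a membrane phosphoinositide that recruits and activates the kinase AKT. AKT phosphorylates the transcription factor FOXO1 and keeps it out of the nucleus, so that genes FOXO1 activates, among them those for the IL-7 receptor, homing receptors and memory-associated transcription factors, are kept low in effector cells. Adaptors that bind the same lipid can also feed the Ras and ERK pathway.

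The deposited unit was FPKM, fragments per kilobase of transcript scaled to library size, so levels can be compared between genes. The 3 WT libraries held an estimated 25.1, 48.0 and 27.9 M reads and the 3 WT+PI3Kdi libraries 19.0, 15.2 and 15.4 M reads, so every treated library was shallower than every untreated one and this difference in depth cannot be told apart from the treatment. All 9 CD8 T cell marker genes listed for the check were in the table and none was called changed. Cd79a and Ms4a1 (B cells), Foxp3 (regulatory T cells), Lyz2 and Csf1r (myeloid cells) and Ncr1 (NK cells) were absent from it. Other markers of these cells were present: 4 of 12 for B cells, 3 of 5 for CD4 T cells, 6 of 13 for myeloid cells and 9 of 12 for NK cells. Of these, Igkc, Cd4, Klrd1 and Cd7 were called higher and none lower, as described below. Replicate 1 stood apart in both groups, with 11.9% and 12.1% of FPKM from ribosomal protein genes against 14.8% to 16.4% in the other 4 libraries. WT+PI3Kdi replicates 1 and 2 also stood apart in RNA that carries no poly(A) tail: the 5.8S ribosomal RNA gene n-R5-8s1 was at 15.9, 4.93 and 4.85 FPKM in WT and at 166, 235 and 2.63 FPKM in WT+PI3Kdi, and the 7SK RNA gene Rn7sk at 7.33, 2.64 and 4.99 and at 62.2, 92.0 and 2.35 FPKM. The KO libraries showed the same in an untreated one, FOXO1-GFP KO replicate 1, with n-R5-8s1 at 297 FPKM. Where leaving out 1 library or 1 pair cost a gene chosen by the naming rule its call, its values are given below. No leave-out drops WT+PI3Kdi replicates 1 and 2 together, so no result is given without both. In bulk samples a change in the share of cells of a kind and a change in RNA per cell cannot be told apart.

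How wide was the response of WT CTL to PI3Kdi? At an adjusted p under 0.05 (limma on log2(FPKM + 0.1), all genes) and a fold change over 1.5, 342 of 13283 genes (2.57%) were called, 203 higher (1.53%) and 139 lower (1.05%). With no threshold on the fold, 984 genes (7.41%) passed the adjusted p, of which 515 (3.88%) were higher and 469 (3.53%) lower, so over much of the table the changes were small: the median size of a called change was 0.78 on the log2 scale, and 71 called genes, 52 higher and 19 lower, passed a log2 change of 1. Called genes were mostly of low abundance, with a median WT level of 1.21 FPKM against 5.15 FPKM over all genes, and 124 of the 342 were under 1 FPKM in both groups. Another 75 were over 10 FPKM. Of the called genes 272 (79.5%) were protein coding, against 85.6% of the table. In 288 of them the 3 WT+PI3Kdi libraries all lay on one side of the 3 WT libraries, as did 10.2% of all genes (4.43% with all treated libraries higher and 5.81% with all lower). These shares are the background for the gene lists below. A list of 20 to 30 genes with 1 call or none is near the 2.57% called over all genes. By sign, 7976 of the 13283 genes were below 0 in log2 change and 5306 above.

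These counts rest on the pairing. The same-numbered libraries of a genotype deviated together, and a fit that ignores the pairs called 13 genes, 10 higher and 3 lower, while 683 genes were under an unadjusted p of 0.05 there against 3147 in the paired fit. Of the 342 genes, 73, 61 higher and 12 lower, were called in every alternative that keeps the pairs and tested them. For 63 of the 73 that was 17 alternatives, and for 10 it was 16, since the restriction to a mean level of 1 FPKM or more leaves them out. These 73 genes are marked below as called throughout. Leaving out each pair or each library in turn (9 leave-outs) gave 224 to 313 called genes. The lowest counts were those without pair 3 (224) and pair 1 (225), and the genes called lower fell to 62 without pair 1.

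**Figure D1:**
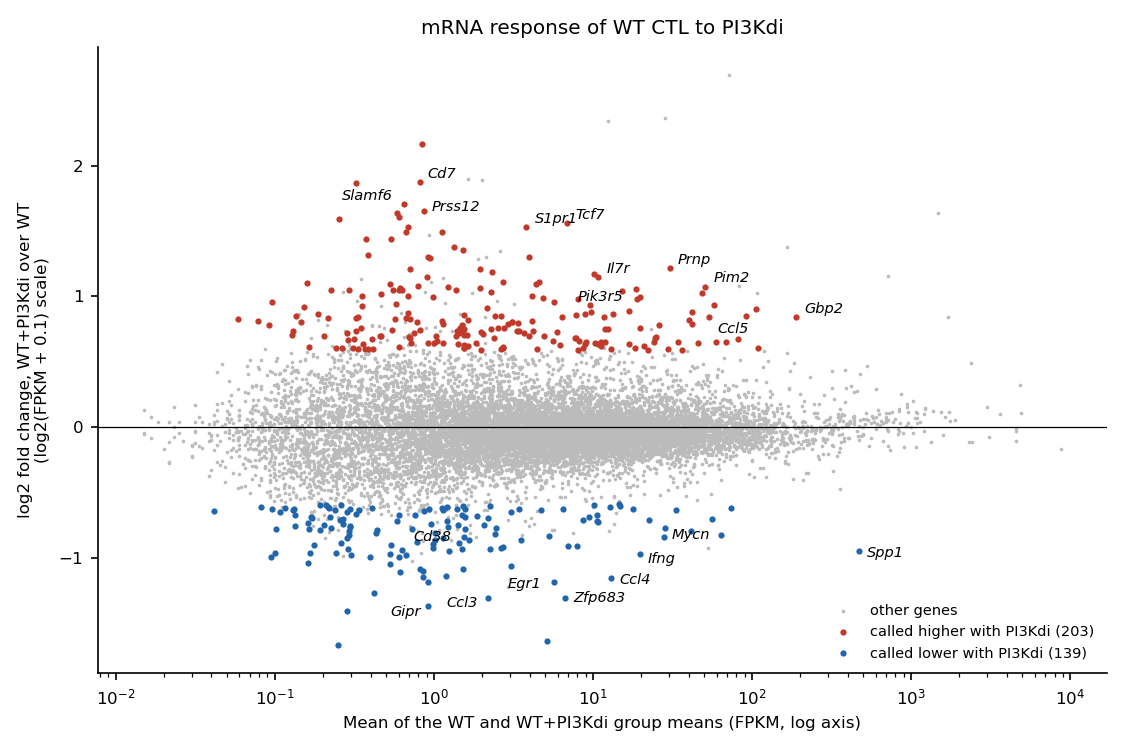
Log2 fold change of WT+PI3Kdi over WT (vertical axis, log2(FPKM + 0.1) scale) against the mean of the 2 group means of each gene in FPKM (horizontal log axis) for 13283 genes, with the 203 genes called higher in red, the 139 called lower in blue and some named. Many called genes lie at the low end of the abundance range, while Prnp, Pim2, Gbp2, Mycn and Spp1 lie over 10 FPKM.

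The largest rises among genes that reach a mean of 1 FPKM were in genes that WT CTL barely expressed. Cd7, an immunoglobulin-family receptor of T and NK cells, was at 0.21, 0.24 and 0.44 FPKM in WT and 1.11, 1.22 and 1.66 FPKM in WT+PI3Kdi, a log2 fold change of 1.88 (SE 0.21, adjusted p = 0.000297). Slamf6, a homotypic receptor of the SLAM family, was at 0.33, 0.22 and 0.21 FPKM and then 1.13, 1.13 and 0.88 FPKM (1.71, SE 0.11, adjusted p = 9.79e-06). For both genes the lowest treated library lay above the highest untreated one. Prss12, which encodes the secreted protease neurotrypsin, went from 0.4, 0.45 and 0.25 FPKM to 1.21, 1.19 and 1.67 FPKM and Tbc1d4, a Rab GTPase-activating protein that AKT phosphorylates, from 0.41, 0.21 and 0.26 FPKM to 1.52, 0.63 and 1.07 FPKM. Pair 1 held the highest Tbc1d4 level and pair 2 the lowest in both groups, so the groups were separated while the libraries kept their order. The log2 changes were 1.65 (SE 0.17) and 1.53 (SE 0.14). Of the others in this set, the rises of Tha1 (threonine aldolase, 1.38), Nsg2 (an endosomal protein first known from neurons, 1.30), Dtx4 (a Deltex-family ubiquitin ligase, 1.30) and Gpld1 (a phospholipase that cleaves glycosylphosphatidylinositol anchors, 1.21) were called throughout. Prnp, the prion protein gene, had the smallest adjusted p of all (6.45e-07). It was at 17.7, 18 and 18.9 FPKM in WT and 40.9, 38.8 and 48 FPKM in WT+PI3Kdi, that is 18.2 ± 0.591 FPKM against 42.6 ± 4.83 FPKM (SD, n = 3), a 2.32-fold change that was also called without the pairing. The lowest treated library lay well above the highest untreated one. Aqp3, an aquaporin whose mean stayed under 1 FPKM, was named after its values were seen: it was at 0.17, 0.15 and 0.37 FPKM and then 1.15, 0.5 and 1.17 FPKM (1.64, SE 0.23), and was called throughout.

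Several large rises were less secure. H3c2 and H1f4 encode histones whose transcripts are not polyadenylated, and their 2 calls were the only ones among 37 such histone genes. H3c2 was at 0.32, 0.17 and 0.35 FPKM in WT and 1.19, 1.59 and 0.42 FPKM in WT+PI3Kdi and H1f4 at 0.31, 0.57 and 0.76 and 1.58, 2.41 and 1.14 FPKM. The median log2 change over the 37 histone genes was 1.31 in pair 1, 0.90 in pair 2 and -0.08 in pair 3, and 34 of 37 were above 0 in the fit. Pairs 1 and 2 are those in which n-R5-8s1 and Rn7sk rose, and the part of tail-less RNA in the histone values was not tested. H3c2 kept its call without pair 3, WT replicate 3 and WT+PI3Kdi replicate 3 and lost it in the other 6 of 9 leave-outs (log2 0.91 to 2.13, adjusted p up to 0.313). H1f4 kept its call without WT replicate 3 and WT+PI3Kdi replicate 3 and lost it in the other 7 of 9 leave-outs (log2 1.21 to 1.97, adjusted p up to 0.253). Igkc kept its call without pair 2 and WT replicate 2 and lost it in the other 7 of 9 leave-outs (log2 1.02 to 1.72, adjusted p up to 0.187). Igkc, an immunoglobulin light chain constant region and so a B lineage gene, was at 0.3, 1.68 and 0.74 FPKM and 1.38, 2.84 and 2.2 FPKM, with groups that overlap.

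The largest falls took in chemokines, cytokines and a set of receptors and enzymes. Among genes that reach a mean of 1 FPKM and are not predicted models, Snord73a, a small nucleolar RNA, fell most, from 4.68, 7.35 and 10.6 FPKM to 0.77, 2.9 and 4.77 FPKM (-1.63, SE 0.28), with 1 treated library above 1 untreated one. It has no poly(A) tail, so an mRNA library recovers it only in part. Its levels rest on an estimated 8 to 24 reads in WT and 1 to 5 reads in WT+PI3Kdi. Zfp683, the transcription factor HOBIT of tissue-resident lymphocytes, was at 9.6, 10.6 and 8.13 FPKM and fell to 5.68, 4.06 and 2.25 FPKM (-1.31, SE 0.19, adjusted p = 0.00143), and the groups did not overlap. Wnt10b, a secreted WNT ligand, fell from 2.66, 4.9 and 4.95 FPKM to 1.33, 2.32 and 2.12 FPKM (-1.06, SE 0.12). Anxa3 (an annexin, -0.95), Ptpn5 (a tyrosine phosphatase that acts on ERK, -0.94) and Ckb (brain-type creatine kinase, -0.93) fell as well, each with no overlap between groups. Gipr, a receptor for an incretin hormone, fell by 1.37 and Lipg, endothelial lipase, by 0.93 on the log2 scale. Gipr kept its call without WT+PI3Kdi replicate 2, pair 3, WT replicate 3 and WT+PI3Kdi replicate 3 and lost it in the other 5 of 9 leave-outs (log2 -1.85 to -0.91, adjusted p up to 0.0843). Lipg kept its call without WT replicate 2 and lost it in the other 8 of 9 leave-outs (log2 -1.02 to -0.81, adjusted p up to 0.0924). Ckb was not called without pair 1 (log2 -0.95, adjusted p = 0.0684). F2rl2, a protease-activated receptor named here after its values were seen, was the most abundant of the 12 falls called throughout after Spp1, at 81.7, 65.4 and 63.6 FPKM in WT and 46.8, 42.1 and 39.5 FPKM in WT+PI3Kdi (-0.71, SE 0.09).

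**Figure D2:**
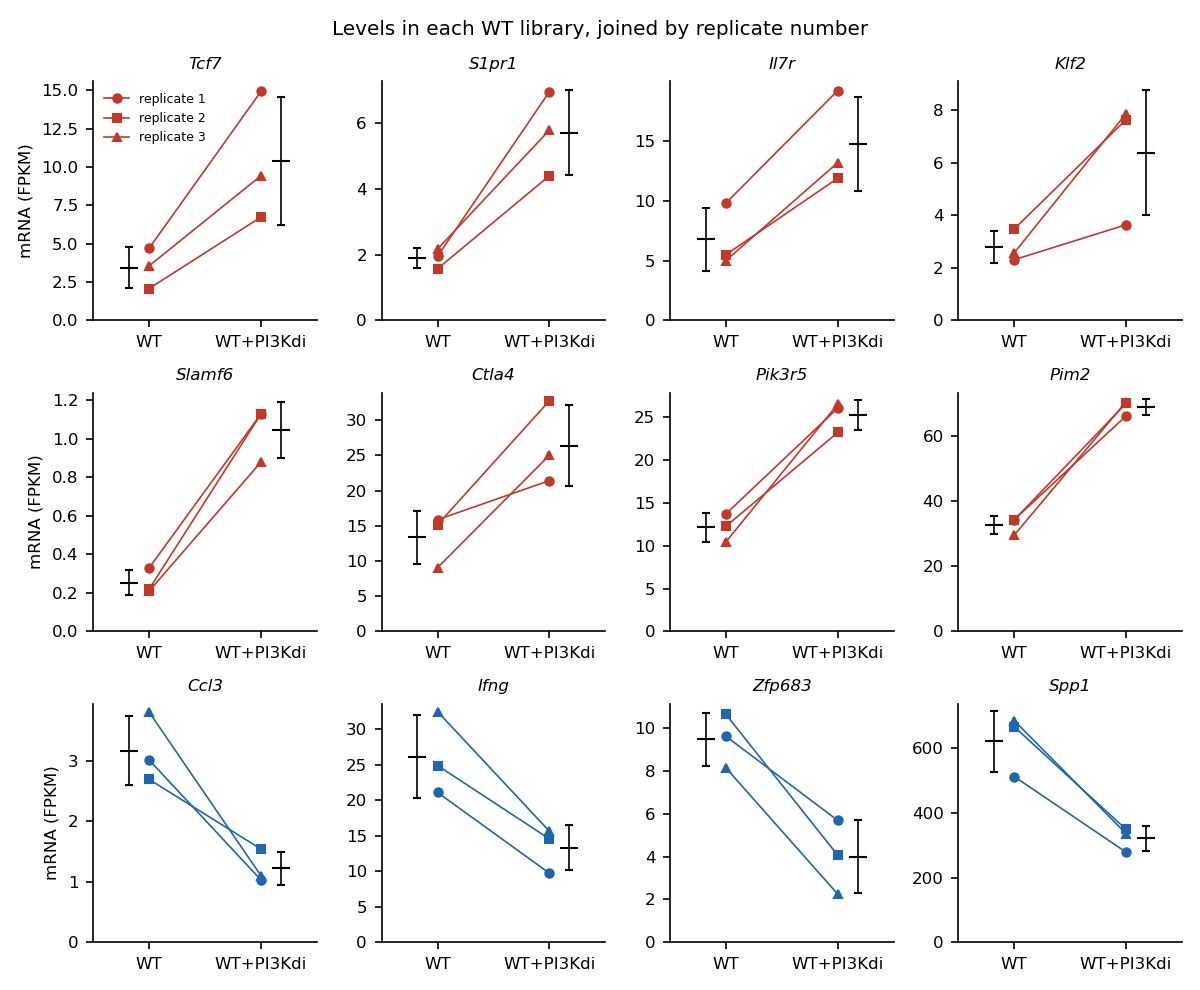
FPKM of 12 named genes (vertical axes from 0) in the 3 WT and the 3 WT+PI3Kdi libraries, with lines joining libraries of the same replicate number and black dashes and bars for the group mean ± SD (n = 3). The lines rise in all 3 pairs for the 8 genes in red and fall in all 3 for the 4 in blue.

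The FOXO1 target genes rose together. All 6 T cell genes listed as direct FOXO1 targets (Il7r, Klf2, S1pr1, Ccr7, Tcf7 and Bach2) were called higher, with a median log2 change of 1.13 against -0.04 over all genes tested, and their medians were 0.98, 1.11 and 1.38 in pairs 1 to 3. The list was chosen with earlier results of these data known, so the 6 calls describe its members and are no test of FOXO1 targets. Tcf7, the transcription factor TCF1 of naive and memory T cells, was at 4.71, 2.08 and 3.56 FPKM in WT and 14.9, 6.74 and 9.44 FPKM in WT+PI3Kdi (1.56, SE 0.15, adjusted p = 0.000175). S1pr1, the receptor that lets lymphocytes leave lymphoid tissue, went from 1.95, 1.57 and 2.17 to 6.96, 4.4 and 5.79 FPKM (1.53, SE 0.15). Il7r, the alpha chain of the IL-7 receptor, went from 9.8, 5.49 and 5 to 19.2, 11.9 and 13.2 FPKM (1.15, SE 0.14). None of these 3 genes had overlapping groups, and each was called throughout, and Tcf7 and Il7r were highest in replicate 1 of both groups. Klf2, the factor that drives S1pr1 and other homing genes, rose from 2.31, 3.48 and 2.57 to 3.64, 7.64 and 7.87 FPKM (1.11), least in pair 1. Ccr7, the lymph node homing chemokine receptor, was already at 17.3, 16.9 and 22 FPKM and was at 34.9, 23.8 and 30.1 FPKM with PI3Kdi (0.65), and Bach2, a repressor that restrains effector differentiation, went from 2.19, 1.49 and 0.98 to 3.31, 2.26 and 2.06 FPKM (0.71). Klf2 was not called without pair 3 (log2 0.87, adjusted p = 0.077). Ccr7 kept its call without WT+PI3Kdi replicate 2 and WT replicate 3 and lost it in the other 7 of 9 leave-outs (log2 0.47 to 0.75, adjusted p up to 0.244). Bach2 was not called without WT replicate 3 (log2 0.54, adjusted p = 0.0342) and pair 3 (log2 0.57, adjusted p = 0.0373). Foxo1 mRNA itself was at 9.99, 5.77 and 5.79 FPKM and 10.5, 5.84 and 7.5 FPKM (0.15, 95% CI -0.19 to 0.49, not called).

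Genes that FOXO factors drive in many cell types moved less as a group: 4 of 18 were called, all higher, and the median was 0.14. They were Bcl2l11, the pro-apoptotic protein BIM (6.98, 5.06 and 6.72 to 13.9, 8.45 and 12.5 FPKM, 0.87), Irs2, the insulin receptor substrate (0.42, 0.22 and 0.12 to 0.61, 1.06 and 0.79 FPKM, 1.44), Cdkn1b, the cyclin-dependent kinase inhibitor p27 (0.59), and Pik3ip1, a transmembrane inhibitor of PI3K (0.61). Of these, Bcl2l11 was called throughout. Irs2 was not called without pair 2 (log2 1.23, adjusted p = 0.0534). Cdkn1b kept its call without pair 2, WT replicate 2 and WT+PI3Kdi replicate 2 and lost it in the other 6 of 9 leave-outs (log2 0.53 to 0.71, adjusted p up to 0.128). Pik3ip1 kept its call without pair 2, WT replicate 2 and WT+PI3Kdi replicate 2 and lost it in the other 6 of 9 leave-outs (log2 0.45 to 0.80, adjusted p up to 0.132). Among 14 transcription factors of memory and stem-like T cells, 4 were called higher and none lower (28.6%, against 2.57% of all genes), with a median of 0.30. Above 0 were 12 of 14, against 5306 of all 13283 genes. Besides Tcf7, Klf2 and Bach2, which are also on the FOXO1 list, the called one was Klf3, at only 0.17, 0.1 and 0.11 FPKM in WT and 0.38, 0.25 and 0.28 FPKM in WT+PI3Kdi. Lef1, the partner of TCF1, passed the adjusted p but not the fold: it was at 9.12, 9.09 and 9.13 FPKM and 13.2, 12.5 and 14.1 FPKM (0.53, SE 0.06, adjusted p = 0.000352), the tightest WT group of the list. Id3 (0.52), Satb1 (0.34) and Foxp1 (0.26) were likewise past the adjusted p alone.

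Promoter windows of RefSeq (GRCm38.p6, 250 bases before to 50 after a gene's start) were searched on both strands for GTAAACA, the core letters that FOXO and other forkhead factors bind; its reverse complement is TGTTTAC. Of 144 called higher genes with a window, 12 (8.33%, Wilson 95% CI 4.83 to 14) held the letters, against 2 of 84 called lower genes (2.38%) and 293 of 9623 genes tested (3.04%). The interval takes genes as independent, though some called genes are neighbours, so it is no test of the share, and enrichment was not tested. Of the 6 T cell FOXO1 targets 4 had a window, and Tcf7 was the 1 that held the letters. Windows of Il7r, Klf2 and Bach2 did not. Of the 67 genes named by the rule that had a window, 5 held them. The windows below are those of 4 of these 5, from genes of the FOXO1, survival, cytokine and effector lists, the first 3 higher and the last lower with PI3Kdi. The fifth, Ifi206 of the HIN-200 list, was also called higher and holds TGTTTAC, and its window is not printed. Capitals mark the match, which is a description of letters and not a site of binding. Tcf7 lies at chr11:52282546-52282845 on the minus strand, Bcl2l11 at chr2:128125788-128126087 on the plus strand, Ltb at chr17:35194257-35194556 on the plus strand and Prdm1 at chr10:44458699-44458998 on the minus strand.
Tcf7: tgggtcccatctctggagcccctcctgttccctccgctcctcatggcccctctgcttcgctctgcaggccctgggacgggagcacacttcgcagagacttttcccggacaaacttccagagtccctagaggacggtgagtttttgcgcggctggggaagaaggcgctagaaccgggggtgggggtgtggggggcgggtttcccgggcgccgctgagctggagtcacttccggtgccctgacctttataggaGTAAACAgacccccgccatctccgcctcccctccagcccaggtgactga
Bcl2l11: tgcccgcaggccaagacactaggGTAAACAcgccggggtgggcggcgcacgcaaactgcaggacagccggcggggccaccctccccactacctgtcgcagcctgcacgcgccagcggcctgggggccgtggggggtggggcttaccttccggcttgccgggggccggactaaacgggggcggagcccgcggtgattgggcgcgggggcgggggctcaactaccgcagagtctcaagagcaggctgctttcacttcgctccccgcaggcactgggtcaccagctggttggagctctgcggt
Ltb: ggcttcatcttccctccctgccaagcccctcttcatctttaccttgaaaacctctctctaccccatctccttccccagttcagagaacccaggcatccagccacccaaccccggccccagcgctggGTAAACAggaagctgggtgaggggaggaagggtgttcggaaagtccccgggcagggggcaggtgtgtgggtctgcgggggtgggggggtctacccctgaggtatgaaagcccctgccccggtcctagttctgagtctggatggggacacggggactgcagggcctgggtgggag
Prdm1: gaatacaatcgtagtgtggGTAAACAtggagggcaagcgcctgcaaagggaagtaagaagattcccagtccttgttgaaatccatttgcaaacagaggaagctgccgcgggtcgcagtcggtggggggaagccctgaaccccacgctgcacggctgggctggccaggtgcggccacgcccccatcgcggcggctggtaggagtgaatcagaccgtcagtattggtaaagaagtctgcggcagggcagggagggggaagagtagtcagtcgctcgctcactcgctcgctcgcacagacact

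Effector transcription factors did not move as one. Of 18 listed, 2 were called higher and 3 lower (27.8%), and the median was 0.01. Another 3 passed the adjusted p alone. Tbx21, T-bet, and Eomes, its relative, were not called: Tbx21 was at 11.6, 12 and 11.6 FPKM in WT and 11.8, 11 and 12.8 FPKM in WT+PI3Kdi (0.02, 95% CI -0.17 to 0.21) and Eomes at 82.5, 81.8 and 89.7 and 112, 83.9 and 83.5 FPKM (0.12, 95% CI -0.07 to 0.32). Neither interval reaches the 1.5-fold threshold. Hic1, a transcriptional repressor, rose from 2.79, 2.02 and 3.63 to 6.02, 5.76 and 6.06 FPKM (1.09, SE 0.13) and was called throughout, and Irf4, a factor that scales with antigen receptor signalling, from 14.7, 9.18 and 7.49 to 19.7, 14.3 and 12.6 FPKM (0.60). Zfp683 fell, as given above, and so did Prdm1, the repressor BLIMP-1, from 3.82, 2.59 and 1.92 to 1.98, 1.82 and 1.41 FPKM (-0.61). Tox, a factor of exhausted T cells, was called lower at levels of 0.16, 0.13 and 0.17 FPKM against 0.09, 0.03 and 0.03 FPKM. Irf4 kept its call without pair 1, WT replicate 1, WT+PI3Kdi replicate 1 and WT+PI3Kdi replicate 2 and lost it in the other 5 of 9 leave-outs (log2 0.50 to 0.74, adjusted p up to 0.065). Prdm1 kept its call without WT replicate 3 and lost it in the other 8 of 9 leave-outs (log2 -0.73 to -0.43, adjusted p up to 0.189). Tox kept its call without pair 1, WT replicate 1, WT+PI3Kdi replicate 1, WT replicate 2 and WT+PI3Kdi replicate 2 and lost it in the other 4 of 9 leave-outs (log2 -0.94 to -0.64, adjusted p up to 0.103).

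Inhibitory receptors rose in part. Of 14 listed, 4 were called higher, none lower, and the median was 0.14. Ctla4, which competes with CD28 for its ligands, was at 15.9, 15.2 and 9.05 FPKM in WT and 21.4, 32.7 and 25 FPKM in WT+PI3Kdi (0.998, SE 0.16, adjusted p = 0.00254), with every treated library above every untreated one. Lag3, a receptor for MHC class II, went from 27.7, 29.6 and 22.8 to 35.5, 43.7 and 47 FPKM (0.65), and Nt5e, the ecto-enzyme CD73 that makes adenosine, from 1.49, 0.96 and 1.66 to 3.61, 2.14 and 4.1 FPKM (1.19). The fourth was Slamf6. Pair 3 gave the largest rise of Lag3. Lag3 was not called without WT replicate 3 (log2 0.48, adjusted p = 0.0179), WT+PI3Kdi replicate 3 (log2 0.48, adjusted p = 0.0209) and pair 3 (log2 0.46, adjusted p = 0.0322). Nt5e kept its call without pair 2, WT replicate 2, WT+PI3Kdi replicate 2 and WT replicate 3 and lost it in the other 5 of 9 leave-outs (log2 1.12 to 1.29, adjusted p up to 0.124). Pdcd1, which encodes PD-1, was at 9.65, 8.18 and 7.44 and 8.32, 10.2 and 9.62 FPKM (0.16, 95% CI -0.11 to 0.42), Havcr2 (TIM-3) at 63.6, 59.2 and 48.8 and 50.1, 52.4 and 54.5 FPKM (-0.12, 95% CI -0.30 to 0.06) and Tigit at 31.3, 26.3 and 27.2 and 30.3, 28.9 and 33.7 FPKM (0.13, 95% CI -0.06 to 0.32); all of them had overlapping groups. None of 13 costimulatory receptors was called, against 2.57% of all genes, though their log2 changes ran from -0.48 to 1.13. Tnfrsf9 (4-1BB) was at 329.7, 341 and 296 FPKM in WT and 275, 343 and 328 FPKM in WT+PI3Kdi (-0.03, 95% CI -0.19 to 0.12), while Icos passed the adjusted p alone (0.46, adjusted p = 0.0343). Slamf7, which was lower, also passed the adjusted p alone.

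By count, though not by share, homing and trafficking receptors held the most calls of the lists by function. Of 23 in the table, 7 were called higher and none lower: S1pr1, Ccr7, S1pr4, Gpr183, Cxcr4, Cxcr5 and Itga4. That is 30.4%, against 100% of the FOXO1 targets, a list that also holds S1pr1 and Ccr7. The median was 0.21. Cxcr4, the receptor for CXCL12, was at 4.12, 3.76 and 3.61 FPKM in WT and 6.94, 7.04 and 8.65 FPKM in WT+PI3Kdi (0.95, SE 0.13, adjusted p = 0.00123). Gpr183, which guides cells along oxysterol gradients, went from 15.6, 15.6 and 18.4 to 24, 23.6 and 29.1 FPKM (0.62, SE 0.08), and S1pr4, a second sphingosine 1-phosphate receptor, from 21.7, 23.2 and 25.9 to 30.8, 33.2 and 44.5 FPKM (0.60). In these 3 genes no treated library fell as low as an untreated one, and Cxcr4 and Gpr183 were called throughout. Itga4, the integrin α4 chain, rose from 1.18, 0.67 and 0.42 to 2.6, 1.38 and 1.09 FPKM (1.07) with its highest level in replicate 1 of each group, and Cxcr5 stayed at or under 0.24 FPKM in every library. S1pr4 was not called without WT replicate 3 (log2 0.54, adjusted p = 0.0103), WT+PI3Kdi replicate 3 (log2 0.49, adjusted p = 0.00798) and pair 3 (log2 0.51, adjusted p = 0.0128). Cxcr5 kept its call without pair 2, WT replicate 2 and WT+PI3Kdi replicate 2 and lost it in the other 6 of 9 leave-outs (log2 0.37 to 0.80, adjusted p up to 0.283). Itga4 kept its call without WT replicate 1, pair 2, WT replicate 2, WT+PI3Kdi replicate 2 and WT+PI3Kdi replicate 3 and lost it in the other 4 of 9 leave-outs (log2 0.95 to 1.16, adjusted p up to 0.0565). Cxcr3, a chemokine receptor that guides effector cells to inflamed tissue, did not follow, at 19.6, 19.6 and 20.6 and 22, 20.1 and 20.1 FPKM (0.06, 95% CI -0.06 to 0.17).

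Calls among the secreted products went in both directions. Of 6 chemokines in the table Ccl3 and Ccl4 were called lower and Ccl5 higher, and the list median was -0.69. Ccl3, an inflammatory CC chemokine, was at 3.01, 2.69 and 3.8 FPKM in WT and 1.03, 1.54 and 1.1 FPKM in WT+PI3Kdi (-1.31, SE 0.17, adjusted p = 0.000725), and its neighbour Ccl4, a close relative, at 15.9, 19.3 and 18.1 and 5.17, 11.1 and 8.55 FPKM (-1.15, SE 0.16). Ccl5, a CC chemokine made by memory and effector CD8+ T cells, rose from 30.9, 36.7 and 48.4 to 58, 65.8 and 83.8 FPKM (0.84, SE 0.08, adjusted p = 0.000124). Within each of the 3 genes the groups were separate, and all 3 were called throughout. Xcl1 was at 1.29, 1.08 and 2.68 and 1, 0.63 and 1.24 FPKM (-0.69, SE 0.32, not called). Ccl12, a monocyte chemoattractant not on the list, was at 1.26, 1.24 and 2.47 FPKM and 0.68, 0.37 and 1.09 FPKM. Ccl12 was called in none of the 9 leave-outs (log2 -1.31 to -0.92, adjusted p up to 0.247).

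Among 21 cytokines, Ifng and Spp1 were called lower and Ltb higher, with a median of -0.12. Below 0 were 15 of 21, against 7976 of all 13283 genes. Ifng, interferon gamma, was at 21.1, 24.9 and 32.4 FPKM in WT and 9.73, 14.6 and 15.6 FPKM in WT+PI3Kdi (-0.97, SE 0.12, adjusted p = 0.000442). Spp1, osteopontin, was the most abundant gene called lower, at 512, 666 and 685 FPKM and 278, 349 and 336 FPKM (-0.95, SE 0.07), and had the smallest adjusted p of any fall (1.89e-05). The 3 treated libraries were below the 3 untreated libraries for both. Ltb, lymphotoxin β, which builds lymphoid tissue, rose from 58.1, 59.7 and 71.9 to 95.2, 91.8 and 117 FPKM (0.68). Ltb was not called without pair 1 (log2 0.66, adjusted p = 0.0648). Its neighbour Tnf was at 69, 84.2 and 94.5 FPKM and 59.2, 78.9 and 73.7 FPKM (-0.22, 95% CI -0.40 to -0.04), and Csf2, encoding GM-CSF, at 1.54, 3.12 and 1.93 and 1.44, 1.31 and 0.81 FPKM (-0.81, adjusted p = 0.0542); neither was called. Of 26 cytokine receptors Il7r and Ifngr2, the second chain of the interferon gamma receptor, were called higher and none lower (7.69%, against 2.57% of all genes). Above 0 were 21 of 26, against 5306 of all 13283 genes, with a median of 0.14. Ifngr2 went from 4, 3.19 and 3.97 to 7.01, 5.96 and 5.32 FPKM (0.70). Ifngr2 was not called without pair 1 (log2 0.65, adjusted p = 0.0585). None of 22 JAK, STAT and SOCS genes was called, against 2.57% of all genes.

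None of 21 cytolytic effector genes was called, against 2.57% of all genes, and the median was -0.06. Another 4 of 21 passed the adjusted p alone. They were Gzmc (0.49) and Gzmk (0.54), granzymes with higher levels, and Prf1 and Stx11 (-0.32), a syntaxin of granule release, with lower ones. Gzmg, another granzyme, was at -0.92 on the log2 scale (adjusted p = 0.0541), the lowest of the list. Gzmb, granzyme B, was at 9173, 9685 and 9059.7 FPKM in WT and 7317, 9026 and 8571 FPKM in WT+PI3Kdi (-0.17, 95% CI -0.44 to 0.10), and its 3 treated libraries were all below the untreated ones by less than the call requires. Prf1, perforin, passed the adjusted p without the fold, at 448, 446 and 349 FPKM and 267, 329 and 296 FPKM (-0.47, SE 0.12, adjusted p = 0.0284). Gzma, granzyme A, was at 4187, 4394 and 4299 FPKM and 4729, 5463 and 5940.5 FPKM (0.32, 95% CI 0.09 to 0.54, adjusted p = 0.0825), and Fasl, the death ligand, at 31.4, 30.2 and 34.5 and 35.5, 31.4 and 34 FPKM (0.07, 95% CI -0.07 to 0.21).

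**Figure D3:**
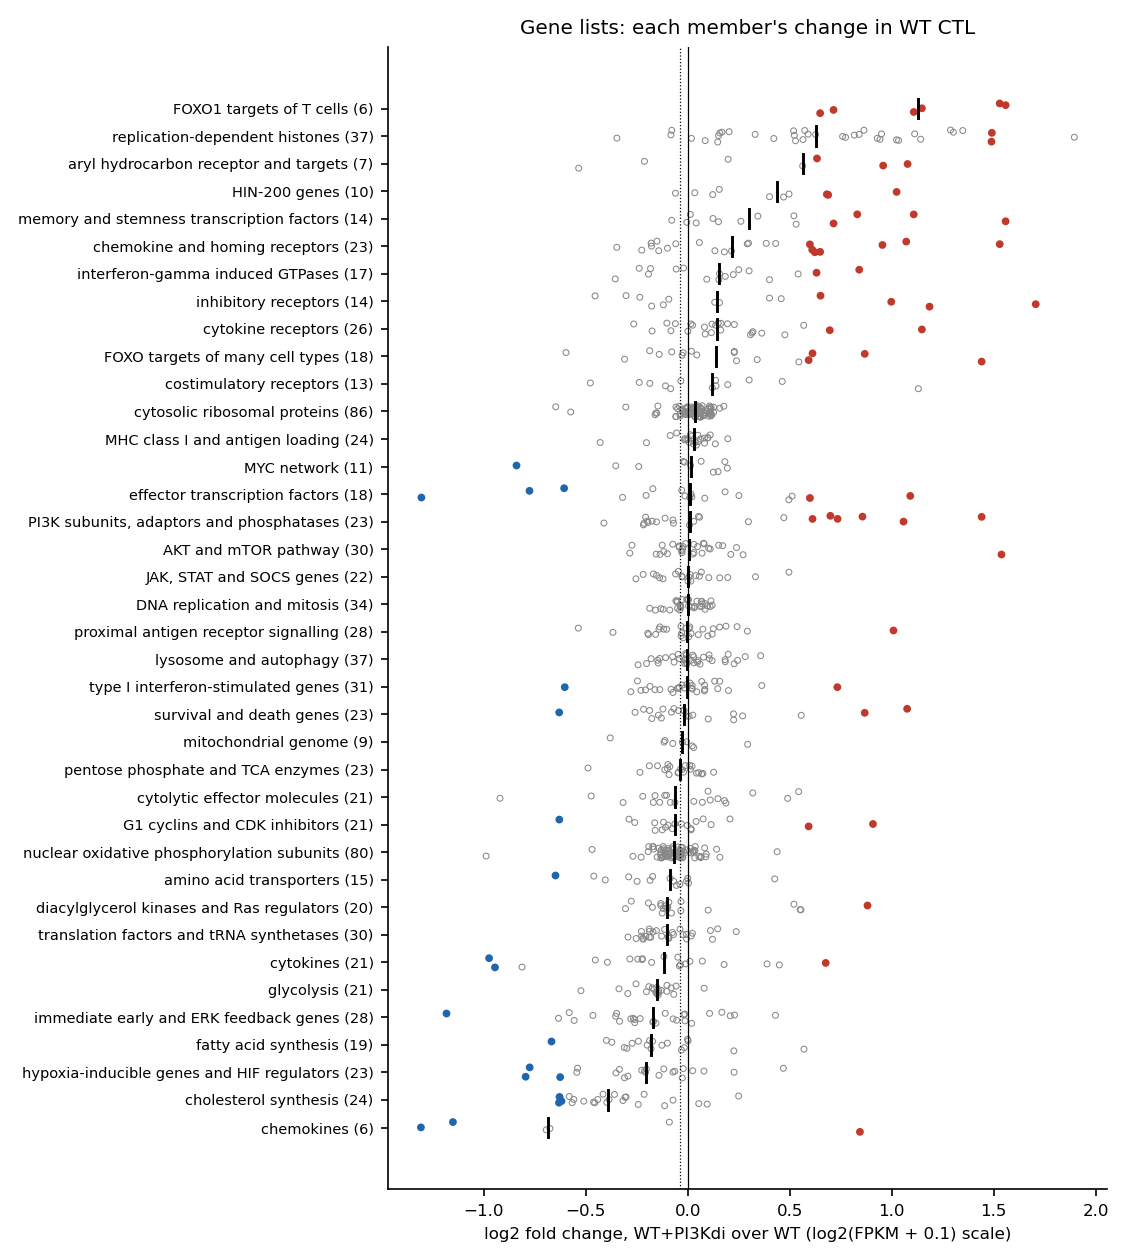
Log2 fold change of WT+PI3Kdi over WT (horizontal axis) of each member of the gene lists, with the number of members in the table in brackets, filled red or blue points for called members, open points for the others, black bars for list medians and a dotted line at the median of all genes. The FOXO1 target genes lie to the right with a median of 1.13 and all 6 filled, cholesterol synthesis genes to the left with -0.39, and the ribosomal protein, replication and glycolysis lists hold open points alone.

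Some genes of the PI3K pathway itself rose, activators as well as inhibitors. Of 23 PI3K subunits, adaptors and lipid phosphatases, 6 were called higher and none lower, although the list median was 0.01. Pik3r5, the regulatory subunit of the G protein-coupled p110γ enzyme, was at 13.7, 12.3 and 10.4 FPKM in WT and 26.1, 23.2 and 26.5 FPKM in WT+PI3Kdi (1.06, SE 0.08, adjusted p = 1.51e-05) and was called with and without the pairing. Phlpp1, a phosphatase that removes phosphate from AKT, went from 1.33, 0.98 and 0.93 to 2.48, 1.73 and 1.9 FPKM (0.86), Gab3, a docking protein, from 2.61, 2.33 and 2.45 to 4.6, 3.54 and 4.42 FPKM (0.73), and Gab2, its paralogue, from 1.59, 0.76 and 0.81 to 2.19, 1.38 and 1.57 FPKM (0.70). Gab2 was the one of the 4 with overlapping groups. The remaining calls, Irs2 and Pik3ip1, are described above. Gab2 kept its call without pair 1 and WT replicate 1 and lost it in the other 7 of 9 leave-outs (log2 0.60 to 0.88, adjusted p up to 0.129). Pik3cd, the gene of p110δ itself, was at 176, 142 and 142 FPKM in WT and 189.7, 177 and 197 FPKM in WT+PI3Kdi, past the adjusted p (0.0139) with a log2 change of 0.30 (95% CI 0.16 to 0.43). Of 30 AKT and mTOR pathway genes Tbc1d4 was the one called (3.33%, against 2.57% of all genes). Akt1 was at 90.3, 81.7 and 81.1 and 88.8, 80.1 and 82.2 FPKM (-0.01, 95% CI -0.12 to 0.10). Prr5, a subunit of mTORC2 named here after its values were seen, rose from 5.96, 5.95 and 8.43 to 11, 11 and 15.7 FPKM (0.88, SE 0.09).

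In the Ras branch, 1 of 20 diacylglycerol kinases and Ras regulators was called (5%, against 2.57% of all genes). Dgka, diacylglycerol kinase α, which removes the lipid that activates RasGRP, was at 29.4, 29.7 and 30.01 FPKM in WT and 49.2, 54.3 and 61.2 FPKM in WT+PI3Kdi (0.88, SE 0.09, adjusted p = 0.00023), with untreated libraries that were almost equal (SD 0.30 FPKM, n = 3), and it was called throughout. Of 28 immediate early and ERK feedback genes, 22 were below 0, as were 7976 of all 13283 genes, and the median was -0.17. Egr1, an ERK-driven transcription factor, was the only one called (3.57%, against 2.57% of all genes). It was at 9.05, 9.1 and 5.25 FPKM in WT against 2.76, 5.65 and 2.23 FPKM in WT+PI3Kdi (-1.19, SE 0.20), with a treated library in the range of the untreated ones. Egr1 was not called without pair 1 (log2 -0.94, adjusted p = 0.106). Dusp6, the ERK phosphatase, was at 48.7, 42.9 and 37.1 and 34, 40.5 and 32.8 FPKM (-0.26, adjusted p = 0.0728). Of 28 genes of proximal antigen receptor signalling, Trat1, an adaptor that stabilises the receptor, was called higher, from 0.71, 0.28 and 0.28 to 1.46, 0.82 and 0.56 FPKM (1.01). This 1 call is 3.57% of the list, near the share over all genes. Trat1 kept its call without WT replicate 1, pair 3, WT replicate 3 and WT+PI3Kdi replicate 3 and lost it in the other 5 of 9 leave-outs (log2 0.86 to 1.15, adjusted p up to 0.0914).

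Growth, division and survival genes differed by list. None of 34 DNA replication and mitosis genes was called, with 17 above 0 and 17 below, against 5306 above and 7976 below over all genes. In the MYC network of 11 genes, Mycn, the N-MYC gene, was called lower, at 34, 37.7 and 35.4 FPKM in WT and 17.5, 24.8 and 18.1 FPKM in WT+PI3Kdi (-0.84, SE 0.07, adjusted p = 5.71e-05), also without the pairing, while Myc was at 42.6, 50.9 and 32.5 and 39.2, 66.9 and 36.6 FPKM (0.15, 95% CI -0.08 to 0.37). Of 21 G1 cyclins and CDK inhibitors, Cdkn1b and Cables1, a regulator of cyclin-dependent kinases (1.6, 1.5 and 1.29 to 2.3, 3.28 and 2.98 FPKM, 0.91), were called higher and Ccnd1, cyclin D1, lower at levels of 0.18, 0.14 and 0.22 against 0.13, 0.04 and 0.08 FPKM. Ccnd1 kept its call without WT+PI3Kdi replicate 1 and lost it in the other 8 of 9 leave-outs (log2 -0.81 to -0.53, adjusted p up to 0.258). Among 23 survival and death genes, Pim2, a pro-survival kinase, rose from 34.3, 34.2 and 29.5 to 66.1, 69.9 and 70.4 FPKM (1.08, SE 0.11), Bcl2l11 rose, and Bcl2a1d, an anti-apoptotic BCL2 relative with near-identical copies in the genome, was called lower (-0.63). Bcl2a1d kept its call without WT replicate 1, WT+PI3Kdi replicate 1, pair 2, WT replicate 2 and WT+PI3Kdi replicate 2 and lost it in the other 4 of 9 leave-outs (log2 -0.72 to -0.55, adjusted p up to 0.0889). The Pim2 groups did not overlap, and the treated libraries lay close together. Pdcd4, an inhibitor of translation named here after its values were seen, rose from 14.6, 10.8 and 12.9 to 26.8, 22.6 and 25.8 FPKM (0.98, SE 0.06, adjusted p = 6.2e-06).

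Of the metabolic lists, cholesterol synthesis shifted most. Of 24 genes 21 were below 0, the median was -0.39, 13 were lower at the adjusted p alone and 3 were also past the fold: Insig1, the sterol sensor, Hmgcs1, HMG-CoA synthase, and Pmvk, phosphomevalonate kinase. The medians in pairs 1 to 3 were -0.39, -0.36 and -0.33. Pmvk was at 21, 23.1 and 21 FPKM in WT and 13.2, 15.1 and 13.8 FPKM in WT+PI3Kdi (-0.63, SE 0.06, adjusted p = 0.00013) and was called throughout, Hmgcs1 at 104, 90.1 and 75.2 and 67.5, 60.1 and 48 FPKM (-0.62), and Insig1 at 45.2, 44.2 and 31.4 and 28.8, 28.8 and 20.2 FPKM (-0.63). In each the groups were separate, with pair 3 lowest for Hmgcs1 and Insig1. Scd1, the stearoyl-CoA desaturase, was the 1 called member of 19 fatty acid synthesis genes (17, 13.7 and 8.95 to 9.56, 8.45 and 6.3 FPKM, -0.67). Hmgcs1 was not called without WT+PI3Kdi replicate 3 (log2 -0.58, adjusted p = 0.0375) and pair 1 (log2 -0.62, adjusted p = 0.0691). Insig1 was called in none of the 9 leave-outs (log2 -0.67 to -0.59, adjusted p up to 0.182). Scd1 was called in none of the 9 leave-outs (log2 -0.79 to -0.56, adjusted p up to 0.248). Glycolysis had no call among 21 genes, although 20 were below 0, against 7976 of all 13283 genes, with a median of -0.15. The glycolysis medians in pairs 1 to 3 were -0.29, -0.11 and -0.05, so the shift was smallest in pair 3. Ldha was at 820.3, 836 and 709 and 672, 756 and 666 FPKM (-0.17, 95% CI -0.33 to -0.02), and the glucose transporter gene Slc2a1 at 41.7, 49.97 and 38.9 and 38.5, 47.3 and 37.5 FPKM (-0.08, 95% CI -0.23 to 0.06). Translation factors and tRNA synthetases had no call in 30 genes (24 below 0, median -0.10), and of 15 amino acid transporters Slc16a10, an aromatic amino acid carrier, was called lower, from 3.88, 3.32 and 4 to 2.74, 1.94 and 2.38 FPKM (-0.65).

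Hypoxia-inducible genes and HIF regulators had 19 of 23 below 0 (7976 of all 13283 genes were), a median of -0.21 and 3 called lower. Their medians in pairs 1 to 3 were -0.24, -0.20 and -0.05, so pair 3 lay near the median of -0.04 over all genes. Egln3, a HIF prolyl hydroxylase, was at 37.6, 45.5 and 23.7 FPKM in WT and 16.7, 30.4 and 15.8 FPKM in WT+PI3Kdi (-0.78), Ero1l, an oxidase of protein folding, at 75.1, 53.9 and 30.3 and 35, 31.9 and 20.9 FPKM (-0.80), and Epas1, HIF-2α, at 5.63, 3.52 and 3.43 and 3.01, 2.28 and 2.59 FPKM (-0.63). Egln3 and Ero1l overlapped between groups, their WT levels themselves differed across replicates, and Ero1l and Epas1 were highest in WT replicate 1. Egln3 was not called without WT replicate 1 (log2 -0.61, adjusted p = 0.0553), WT+PI3Kdi replicate 1 (log2 -0.60, adjusted p = 0.0535) and pair 1 (log2 -0.58, adjusted p = 0.128). Ero1l kept its call without WT+PI3Kdi replicate 2, pair 3, WT replicate 3 and WT+PI3Kdi replicate 3 and lost it in the other 5 of 9 leave-outs (log2 -0.98 to -0.61, adjusted p up to 0.137). Epas1 kept its call without pair 3, WT replicate 3 and WT+PI3Kdi replicate 3 and lost it in the other 6 of 9 leave-outs (log2 -0.74 to -0.47, adjusted p up to 0.167). Hif1a was at 76.7, 36.2 and 26.9 FPKM in WT and 84.5, 46.2 and 30.8 FPKM in WT+PI3Kdi (0.23, not called), a spread between replicates larger than the change. Klf7 was at 9.42, 6.01 and 4.76 and 7.91, 5.17 and 4.25 FPKM (-0.21, not called).

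Targets of the aryl hydrocarbon receptor, a ligand-activated transcription factor, rose in part: 3 of 7 in the table were called higher and none lower, with a median of 0.56. Ahrr, the receptor's repressor, went from 0.57, 0.29 and 0.58 to 1.07, 0.84 and 1.42 FPKM (1.08, SE 0.18), Tiparp, another feedback gene, from 8.77, 5.71 and 6.43 to 14.6, 9.35 and 8.95 FPKM (0.63, SE 0.11), and Cyp1b1, a cytochrome P450, from 0.03, 0.02 and 0.05 to 0.16, 0.12 and 0.2 FPKM (0.96, SE 0.14). All 3 were separated between groups, Cyp1b1 at levels near the limit of detection. Tiparp was not called without WT replicate 2 (log2 0.58, adjusted p = 0.0357) and WT+PI3Kdi replicate 1 (log2 0.54, adjusted p = 0.0431).

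Innate sensing genes are given by family, beside the 2.57% called over all genes. Of 10 HIN-200 genes, which encode nucleic acid sensors, Ifi209, Ifi206 and Ifi214 were called higher throughout (30%), 9 were above 0 and the median was 0.44. Ifi209 went from 38.9, 31.2 and 26.8 to 73.7, 59.7 and 62.5 FPKM (1.02, SE 0.07, adjusted p = 1.06e-05), also called without the pairing, Ifi206 from 20.9, 17.5 and 19.1 to 34.3, 28.6 and 29.98 FPKM (0.69) and Ifi214 from 5.93, 6.24 and 5.49 to 8.93, 9.88 and 9.69 FPKM (0.68). No library of either group crossed into the range of the other. These genes are near-identical neighbours at chr1:173468485-173647928 (GRCm38), so reads may be split between them and their values are not independent. Of 17 interferon gamma-induced GTPases, 2 were called (11.8%), both higher. Gbp2 rose from 168, 114 and 124 to 299.5, 182 and 251 FPKM (0.84, SE 0.10) and Gbp5 from 5.39, 4.54 and 4.6 to 9.07, 6.44 and 7.32 FPKM (0.63), in the same libraries in which Ifng was lower. Gbp5 was not called without WT+PI3Kdi replicate 1 (log2 0.56, adjusted p = 0.017) and pair 1 (log2 0.58, adjusted p = 0.0302). Type I interferon-stimulated genes had a median of -0.01 over 31, with Ifit1bl1 called higher (0.73) and Mx1 lower (-0.60), 6.45% of the list. None of 24 genes of MHC class I and antigen loading was called, which is near the share over all genes.

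Some called genes were neighbours: within 100 kb, 17 groups of 2 to 6 genes called higher and 7 pairs called lower were found. How many such groups as many genes taken from the whole table would give was not tested, so the counts alone do not show shared control. At chr7:143607659-143685872 lie Tnfrsf26, Tnfrsf22 and Tnfrsf23, decoy receptors of the TNF receptor family, with E230032D23Rik. Tnfrsf26 was at 11.2, 9.51 and 9.03 FPKM in WT and 20.9, 19.6 and 20.8 FPKM in WT+PI3Kdi (1.04, SE 0.07, adjusted p = 6.2e-06), Tnfrsf23 at 3.14, 2.16 and 1.62 and 5.38, 5.1 and 6.49 FPKM (1.30), and Tnfrsf22 at 1.24, 1.46 and 1 and 2.68, 2.46 and 2.85 FPKM (1.06). All were separate between groups and called throughout. A group of 6 at chr19:11362278-11531256 held the membrane proteins Ms4a4a (0.79), Ms4a4c (0.66) and Ms4a6b (0.59). Trgc1 and Trgj1, constant and joining segments of a T cell receptor γ chain at chr13:19210343-19217024, rose by 0.79 and 0.76, Gpr18 and Gpr183 at chr14:121911253-121965195 by 0.64 and 0.62, and Cd4 and Lag3 at chr6:124864692-124911705 by 0.68 and 0.65. Cd4 was called in none of the 9 leave-outs (log2 0.58 to 0.79, adjusted p up to 0.231). Overlapping transcripts were not resolved beyond the strand that the kit records. The pairs called lower included Ccl3 with Ccl4 at chr11:83647844-83664683. Genes in this paragraph that no list holds were named after their values were seen.

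Of the marker lists of other cells, that of NK cells had the highest summed level. Over 9 NK markers in the table, all of them above 0 in log2 change, the sum was 73.9 to 104.6 FPKM in WT and 109.4 to 153.8 FPKM in WT+PI3Kdi. Klrd1, CD94, which CD8+ effector cells also express, was the most abundant of them and was called higher throughout, from 35, 38.5 and 44.7 to 63.4, 75 and 88.4 FPKM (0.93, SE 0.10), as was Cd7. Klrk1, NKG2D, passed the adjusted p alone (0.49), and the defining NK gene Ncr1 was not in the table. Sums for 3 of 5 CD4 markers were 6.65 to 8.24 FPKM in WT and 7.36 to 7.79 FPKM in WT+PI3Kdi, for 4 of 12 B cell markers 11.9 to 16.04 and 16.1 to 20.8 FPKM, and for 6 of 13 myeloid markers 47.5 to 66.0 and 48.9 to 85.0 FPKM. All 4 B cell markers were above 0 in log2 change, with a median of 0.60, and Ighm, an immunoglobulin heavy chain gene, passed the adjusted p alone (0.51). Of the 6 myeloid markers 5 were above 0, with a median of 0.16, and none was called. Cd4 itself stayed under 1 FPKM in every library and Igkc under 3. None of 6 erythroid markers was in the table. The part of other cells in the results was not tested.

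**Figure D4:**
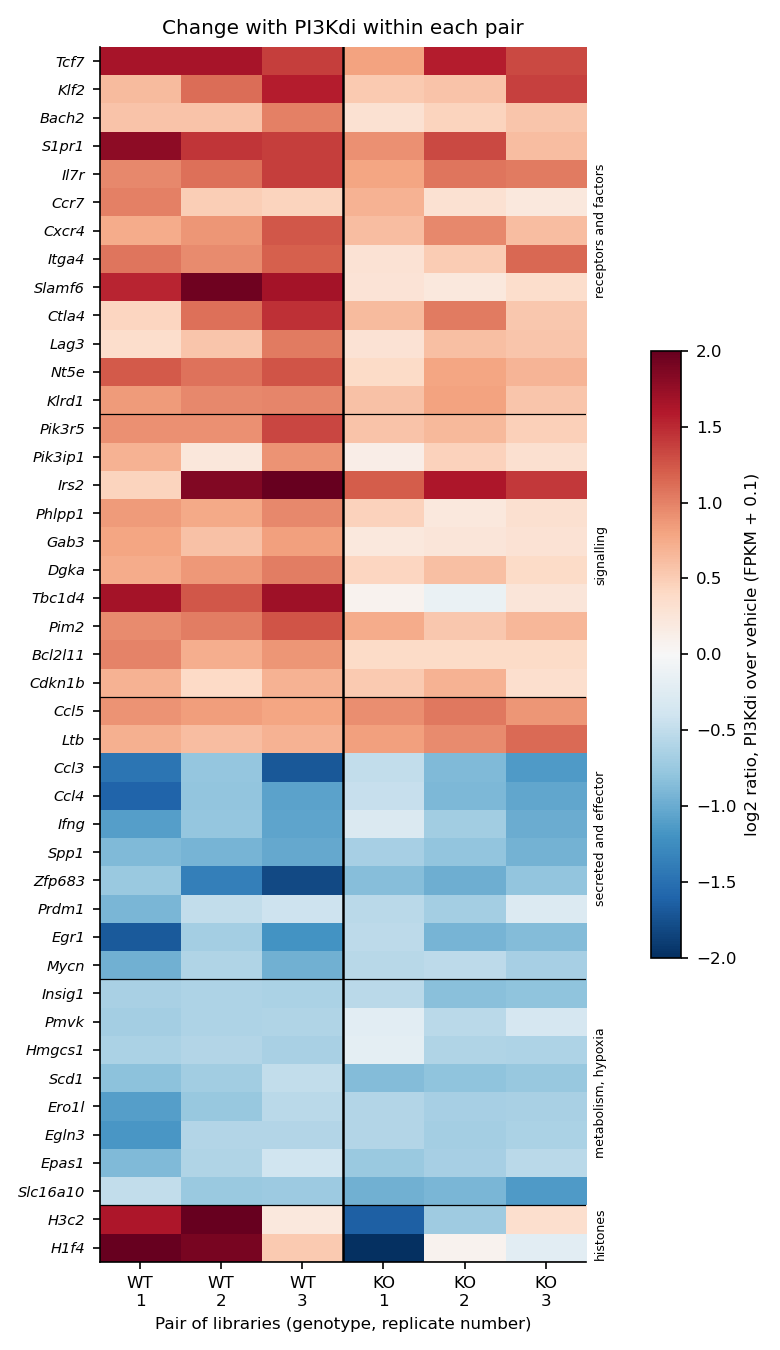
Log2 ratio of PI3Kdi over vehicle (colour, red for higher and blue for lower, FPKM + 0.1) within each of the 3 WT pairs and the 3 FOXO1-GFP KO pairs (columns) for called genes (rows, in blocks by role). Each row keeps its sign in the 3 WT columns, Slamf6 and Tbc1d4 are paler in the KO columns, and the histone rows are dark in WT pairs 1 and 2 and pale in pair 3.

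The response in WT CTL was set beside that of FOXO1-GFP KO CTL, which comes from separate treated and untreated libraries. There 370 genes (2.79%) were called. Of the 342 genes called in WT CTL, 300 (87.7%) had the same sign in FOXO1-GFP KO CTL, against 68.0% of all genes, 113 were called there in the same direction and none in the opposite one. The genes called higher in WT had a median log2 change of 0.79 in WT and 0.53 in KO, and those called lower -0.77 and -0.36. They were picked by the WT values, so the smaller KO medians are no test of a difference. Tested directly, with KO minus WT response as the contrast, 3 genes (0.0226%) were called: Cd38 with a positive difference (0.00753%) and Slamf6 and Tbc1d4 with negative ones (0.0151%). Cd38, an ectoenzyme that consumes NAD, was at 2.03, 1.92 and 2.07 FPKM in WT and 0.97, 1.05 and 1.22 FPKM in WT+PI3Kdi, but at 2.01, 2.03 and 1.98 FPKM in FOXO1-GFP KO and 2.82, 2.78 and 2.53 FPKM in FOXO1-GFP KO+PI3Kdi. It thus fell in WT (-0.84) and was higher in all KO pairs (0.41), a difference of 1.26 (SE 0.11, adjusted p = 0.00105). Slamf6 was at 0.04, 0.03 and 0.01 FPKM in FOXO1-GFP KO and 0.07, 0.05 and 0.04 FPKM with PI3Kdi, a log2 change of 0.28 against 1.71 in WT (difference -1.43, SE 0.16, adjusted p = 0.00813). Tbc1d4 was at 0.09, 0.14 and 0.07 and 0.1, 0.12 and 0.1 FPKM there, a change of 0.06 against 1.53 (difference -1.47, SE 0.20, adjusted p = 0.0272). All FOXO1-GFP KO levels of Slamf6 and most of Tbc1d4 lie at or below 0.1 FPKM, the constant added before the logarithm, where a fold change is understated: with 0.01 FPKM added instead, the differences were -1.16 for Slamf6 and -1.67 for Tbc1d4 and neither was called. No difference was called in the fit without the pairing. Cd38 was called in each of the 9 leave-outs, Slamf6 was not called without pair 2 (-1.31) or pair 3 (-1.45), and Tbc1d4 was called in 2 of the 9, without pair 2 and without WT+PI3Kdi replicate 2, with values of -1.36 to -1.55 in the others.

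A gene not called in that test missed its adjusted p or its fold threshold. Fkbp1a, given under other observations, passed the adjusted p and missed the fold alone. For the genes given in this paragraph, that test did not show a difference between the genotypes. In KO the 6 T cell FOXO1 targets had a median log2 change of 0.88, and 4 of them were called higher. Tcf7 was at 1.13, 0.9 and 0.88 FPKM in FOXO1-GFP KO and 2.04, 2.87 and 2.35 FPKM in FOXO1-GFP KO+PI3Kdi (1.23, against 1.56 in WT, difference 95% CI -0.80 to 0.14). Ctla4 was at 5.53, 3.76 and 4.6 and 8.63, 7.83 and 6.76 FPKM (0.74, difference 95% CI -0.74 to 0.22), Ifng at 26.4, 27.2 and 32.3 and 21.7, 16.9 and 16.2 FPKM (-0.65, difference 95% CI -0.04 to 0.68) and Prnp at 13.5, 14.8 and 13.9 and 24.3, 29.3 and 27.5 FPKM (0.94, difference 95% CI -0.45 to -0.11). The intervals of Tcf7, Ctla4 and Ifng span 0. That of Prnp, which covers 1 gene without adjustment, does not, and its adjusted p of the difference was 0.199. A shared direction does not show an equal size. Ifi209 had 0.49 in KO against 1.02 in WT (adjusted p of the difference 0.0851) and Prss12 0.56 against 1.65 (0.11), neither past the threshold.

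**Figure D5:**
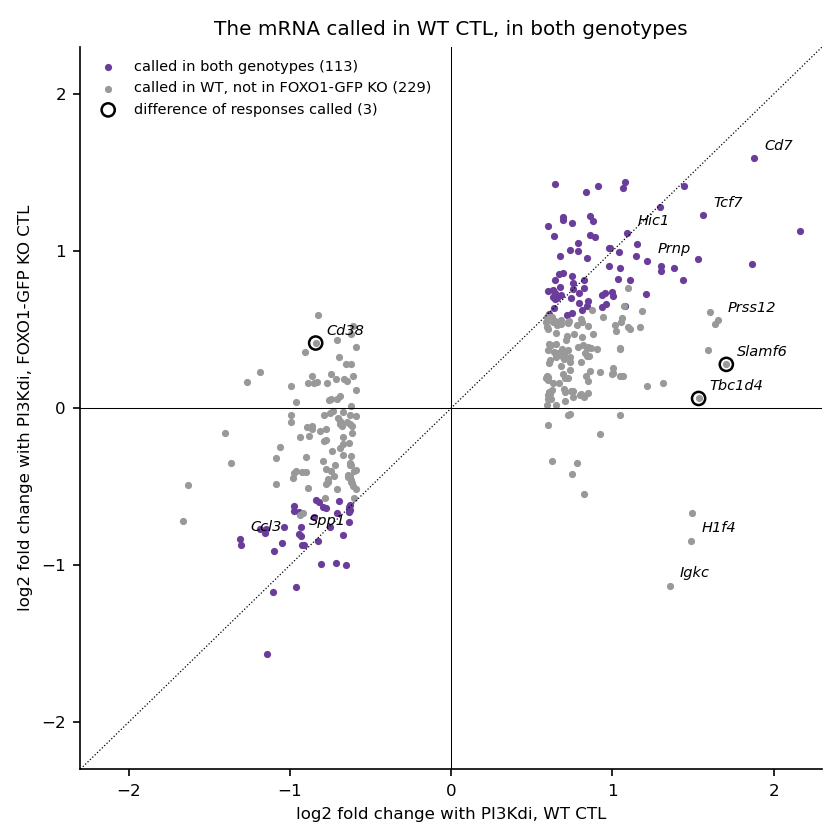
Log2 fold change with PI3Kdi in FOXO1-GFP KO CTL (vertical axis) against that in WT CTL (horizontal axis) for the 342 genes called in WT CTL. Points are purple where genes were also called in FOXO1-GFP KO CTL (113) and grey where not. Rings mark the 3 genes called in the difference of responses, and a dotted line marks equal change. Most points lie in the quadrants of equal sign, and Cd38 lies below 0 in WT and above 0 in FOXO1-GFP KO.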

How the data were processed

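RNA of the 12 libraries (4 groups of 3) was made into libraries by the authors from 300 ng of total RNA with a stranded poly(A) mRNA kit and sequenced as paired ends. Per the labels, reads were aligned to GRCm38.p6 with STAR 2.7.1a, and the authors counted reads per gene, dropped genes with low counts, scaled libraries with edgeR and deposited FPKM values rounded to 2 decimals. The file holds 13283 genes and no counts. Read depth was estimated from the steps between low FPKM values of genes of known length: 98.6% to 100.0% of values held out of the estimate came out within 0.15 of a whole read. These estimates carry the rounding of the deposited values, so they serve to describe depth and for 1 alternative test.

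Values were analysed as log2(FPKM + 0.1) with limma 3.58.1 (R 4.3.3, statmod 1.5.0): 4 group means, the pair of same-numbered libraries of a genotype as a random block (consensus correlation 0.757), and moderated variances with a trend on the mean. Benjamini-Hochberg adjustment ran over all 13283 genes, and a gene was called at an adjusted p under 0.05 and a fold change over 1.5. The added constant makes changes of low genes look smaller than they are. Steps were tested on simulated data. Tables and figures were made with Python 3.11.15, pandas 2.3.3 and matplotlib 3.10.9; gene lengths came from GENCODE M21.

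The pairing comes from the biological replicate numbers in the labels. In WT, deviations of same-numbered libraries from their group means correlated at r = 0.838, 0.596 and 0.678 over 10371 genes, and those of different numbers at -0.758 to 0.316. The labels do not say whether replicates are separate mice or cultures, nor whether a pair shares a mouse, so p-values measure the spread between these samples, which may be technical.

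Named genes were the 15 called mRNA with the largest rise and the 15 with the largest fall among those with a mean of at least 1 FPKM in either WT group, one direction in all 3 pairs and a name other than a predicted model (187 met these conditions), genes named in the study text, called and well-known members of 45 gene lists, genes called in the difference of responses, and the smallest adjusted p in each direction. The comparison, the lists and the tests were chosen with earlier results of these data known. Lists are described by counts and medians, with no set test. Of the alternatives, 18 were run: other treatments of the pairs, other added constants, a filter on low means, another centring, a count-based fit (voom) on estimated reads, removal of length and GC trends, and each pair or library left out. Promoter windows came from RefSeq. Some genes are not reported here.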

Additional observations from a re-analysis of the deposited data

Results flagged for a closer look

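The difference between the genotypes in the response to PI3Kdi was called, by adjusted p and fold, for 3 genes (limma, FOXO1-GFP KO response minus WT response). For Cd38 the difference was 1.26 on the log2 scale (adjusted p = 0.00105): the 3 WT pairs all fell and the 3 FOXO1-GFP KO pairs all rose. For Slamf6 it was -1.43 (adjusted p = 0.00813) and for Tbc1d4 -1.47 (adjusted p = 0.0272), where WT CTL rose and FOXO1-GFP KO CTL stayed at levels near or under 0.1 FPKM. Slamf6 lost the call in 6 of 16 alternatives and Tbc1d4 in 11 of 16, while Cd38 lost it in 1 of 17, the fit without the pairing.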

How the results depend on the processing

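Without the replicate block 13 genes were called in WT CTL (10 higher, 3 lower), all of them among the 342, 6 in FOXO1-GFP KO CTL and none in the difference of responses, where limma with the block called 3. The promoter motif then had 0% of called higher genes, a share that rests on at most 10 genes and is too coarse to set beside 8.33%. With pairs as fixed terms 87 genes were lower, and in the 6 WT libraries alone 218 were called, 70 of them lower. With 1 FPKM added before the logarithm 120 were called (87 higher, 33 lower) and 117 in FOXO1-GFP KO CTL, so that 72.5% of calls were higher against 59.4%. Restricting the fit to a mean level of 1 FPKM or more gave 200 (126 higher, 74 lower). Leaving out a pair or library gave 224 to 313 calls, 135 to 204 higher and 62 to 111 lower. The difference of responses had 1 call with 0.01 FPKM added, 9 with 1 FPKM, 9 with each library centred on its median, 6 with voom, 15 with length and GC trends removed and 1 to 6 in the leave-outs. The causes were not tested. Tnfrsf9, not called anywhere, changed sign from -0.03 to 0.0047 with length and GC trends removed and to 0.0794 without replicate 1, 0.0549 without WT replicate 1 and 0.0748 without WT+PI3Kdi replicate 1, within leave-outs that ran from -0.126 without replicate 3 to 0.0794. Over 831 values of named genes under alternatives, 702 kept their direction and their side of the threshold, 121 lost the call, 4 gained it and 4 changed sign. Treated libraries of 15.2 to 19.0 M reads limit the genes under 1 FPKM and short genes such as Snord73a, where a level rests on few reads.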

Other observations

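Several receptors and regulators outside the lists, named after their values were seen, changed in every alternative that keeps the pairs. Sh3bp5, a mitochondrial partner of the kinase JNK, was at 6.83, 6.09 and 5.74 FPKM in WT and 16, 12.6 and 14 FPKM in WT+PI3Kdi (1.17, SE 0.07, limma adjusted p = 6.2e-06), and Lyst, which sorts lytic granules, at 4.07, 2.52 and 1.74 and 7.32, 4.41 and 4.73 FPKM (1.002, SE 0.15). Neither gene had overlapping groups. Fkbp1a, the immunophilin that binds FK506 and rapamycin, was among the most abundant, at 77.5, 91.2 and 92.3 FPKM and 116, 139 and 143 FPKM (0.61, SE 0.05), against a change of 0.08 in FOXO1-GFP KO CTL (difference -0.53, adjusted p = 0.0207, under the 1.5-fold threshold). Ly6g, a surface antigen best known from neutrophils, was at 84.6, 59.2 and 75 FPKM in WT and 126, 106 and 185 FPKM in WT+PI3Kdi (0.91). Of 13 myeloid markers 6 were in the table, none called and 5 of them above 0 in log2 change (median 0.16), while the neutrophil genes S100a8, S100a9, Mpo and Elane were not in it, and the part of other cells in the Ly6g value was not tested. Acvr2a, an activin receptor, went from 2.13, 1.81 and 1.69 to 3.41, 3.44 and 3.48 FPKM (0.85), Serpina3g, a serine protease inhibitor, from 53.4, 43.6 and 62.7 to 88, 70.1 and 92.2 FPKM (0.65), and Neurl3, a ubiquitin ligase, from 26.9, 27 and 33.3 to 45.4, 47.5 and 62.1 FPKM (0.82). Each was higher in the 3 treated libraries than in the 3 untreated ones.

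The largest log2 changes in the table were not called. n-R5-8s1 was at 2.69 (adjusted p = 0.241) and Rn7sk at 2.36 (adjusted p = 0.252), from rises in WT+PI3Kdi replicates 1 and 2. Lars2, a mitochondrial leucyl-tRNA synthetase gene, was at 51.9, 70.3 and 59.1 FPKM in WT and 173, 248 and 42.5 FPKM in WT+PI3Kdi (1.03, adjusted p = 0.227), and was at 321 FPKM in FOXO1-GFP KO replicate 1 against 50.4 and 82.8 FPKM in replicates 2 and 3. The summed histone level was 43.4, 60.2 and 76.6 FPKM in WT, 82.4, 99.7 and 69.7 FPKM in WT+PI3Kdi and 127 FPKM in FOXO1-GFP KO replicate 1. Among all 12 libraries the 3 high in n-R5-8s1 and Rn7sk were also the 3 highest in Lars2. In histone level FOXO1-GFP KO+PI3Kdi replicate 3, at 98.0 FPKM with n-R5-8s1 at 4.59 FPKM, lay above WT+PI3Kdi replicate 1. Their part in other results was not tested.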
